A study of Mus musculus with 6 samples.

Results

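The NMDA receptor subunit genes were followed in hippocampal mRNA of mice that lost Dicer1 from forebrain neurons as adults. They were chosen by gene symbol, as Grin1, Grin2a, Grin2b, Grin2c, Grin2d and Grin3a, and make up 6 of the 25896 symbols and 23 of the 76938 transcripts counted. Dicer1-ifKO mice carried floxed alleles of Dicer1 (Dicer1 flox/flox) together with CaMKIIa-creERT2, a Cre recombinase that tamoxifen activates. A promoter of forebrain excitatory neurons drives it, so by design inhibitory neurons and glia keep Dicer1, which the counts do not check. WT mice carried the same floxed alleles without Cre. All mice were male, of strain C57BL/6 and 3 months old, all received tamoxifen, and all were killed 3 weeks afterwards. Each genotype had 3 libraries, and each library held the RNA of 3 mice in equal amounts. Since only Dicer1-ifKO mice carried Cre, the loss of Dicer1 and effects of the recombinase cannot be told apart.

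NMDA receptors are glutamate-gated channels that let calcium into the postsynaptic cell and start lasting changes of synaptic strength in the hippocampus. A channel joins the obligatory glycine-binding GluN1 subunit, from Grin1, with glutamate-binding GluN2 subunits, from Grin2a to Grin2d, or with GluN3 subunits such as that from Grin3a; GluN2 subunits set how long the channel stays open and how strongly magnesium blocks it. Dicer1 cuts microRNA precursors, and mature microRNAs pair through their seed with messenger RNAs and lower their stability or translation. In rodent neurons miR-125b has been reported to act on Grin2a and miR-223 on Grin2b.

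The seeds and their matches in the subunit mRNAs were read first, because they show which subunits offer letters for the microRNAs that Dicer1 makes. Of 19 microRNAs listed for brain or for NMDA receptor subunits, 18 had a mature sequence in the RefSeq table (GRCm38.p6), and miR-124-3p was not searched. The following 6 are shown because their 7-base matches are described; capitals mark the seed, bases 2 to 8.
miR-125b-5p: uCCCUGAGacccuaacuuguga
miR-223-3p: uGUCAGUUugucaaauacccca
miR-539-5p: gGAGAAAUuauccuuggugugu
miR-34a-5p: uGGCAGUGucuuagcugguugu
miR-128-3p: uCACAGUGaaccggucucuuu
let-7a-5p: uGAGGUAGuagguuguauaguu
No seed was shared between them. The searched letters are the complement of the seed on the transcribed strand alone, CTCAGGG for miR-125b-5p, AACTGAC for miR-223-3p, ATTTCTC for miR-539-5p, CACTGCC for miR-34a-5p, CACTGTG for miR-128-3p and CTACCTC for let-7a-5p. The other 12 were TTTGCAC for miR-19a-3p, GACAATC for miR-219a-5p, ACCAAAG for miR-9-5p, GACTGTT for miR-132-3p, CACCAGC for miR-138-5p, TACTTGA for miR-26a-5p, TGGTGCT for miR-29a-3p, TGTTTAC for miR-30a-5p, TGAATGT for miR-181a-5p, GTACTGT for miR-101a-3p, GCAAAAA for miR-129-5p and AGCAATA for miR-137-3p.

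The searched sequence was the longest 3′ UTR of each gene in GENCODE M21 (GRCm38), and 58 matches were found, 0 of which overlapped the next. Each of the following lines gives a match in capitals with up to 20 bases before and 3 after it, on the minus strand, on which all 6 genes lie. They are shown as matches of microRNAs in Grin2a and Grin2b, those of miR-125b-5p and miR-223-3p first, and as 1 match for each other subunit that had any.
Grin2a, miR-125b-5p, chr16:9576932-9576938: ttcctcccttctggtgatgaCTCAGGGttg
Grin2a, miR-125b-5p, chr16:9573117-9573123: ctctaggaaggatgatagggCTCAGGGgga
Grin2a, miR-223-3p, chr16:9575528-9575534: ccactgctgtgtcatcacagAACTGACtct
Grin2b, miR-125b-5p, chr6:135731500-135731506: ctttcttcagcttcagaagcCTCAGGGgtg
Grin2b, miR-539-5p, chr6:135731959-135731965: cgctttttcttcttcttttaATTTCTCtat
Grin1, miR-34a-5p, chr2:25291528-25291534: cctttcccagggctagccttCACTGCCcta
Grin2d, miR-128-3p, chr7:45832419-45832425: ccgggccatggccctcacatCACTGTGcag
Grin3a, let-7a-5p, chr4:49663850-49663856: gcactgctctggaagtttggCTACCTCtag
Matches were counted in UTRs of very different lengths. Grin2a had 26 matches to 16 of the 18 microRNAs in 9929 bases (2.62 per kb), and Grin2b had 26 matches to 12 in 18865 bases (1.38 per kb). Grin3a had 4 matches in 3615 bases, Grin1 had 1 in 1187, Grin2d had 1 in 897 and Grin2c had 0 in 402. The letters of a searched microRNA occurred, on average over the 18, in 53.3% of 129 UTRs of a length like that of Grin2a (0.8 to 1.25 times), in 80.2% of 9 like Grin2b, in 27.4% of 1953 like Grin3a, in 10.9% of 3068 like Grin1, in 8.70% of 2888 like Grin2d and in 3.64% of 1983 like Grin2c. CTCAGGG was in 43.4% of the UTRs like Grin2a and 77.8% of those like Grin2b, and AACTGAC was in 41.9% of the UTRs like Grin2a, which held it 3 times, and in 66.7% of those like Grin2b, which held it 0 times. ATTTCTC was in 100% of UTRs like Grin2b, CACTGCC in 13.5% of those like Grin1, CACTGTG in 15.0% of those like Grin2d and CTACCTC in 19.3% of those like Grin3a. A match describes letters only, and neither binding nor repression was measured.

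The counts cover these UTRs unequally. The deposited Grin2a model (Grin2a-001, chromosome 16, 9577710 to 9994921) ended 9812 bases before the M21 3′ end, and 0 of its 26 matches lay inside it. The Grin2b model (Grin2b-201, chromosome 6, 135729826 to 136173511) ended 16593 bases before it and held 5 of 26 matches. Grin1 (Grin1-004, chromosome 2, 25291181 to 25319120), Grin2c (Grin2c-201, chromosome 11, 115249169 to 115267243), Grin2d (Grin2d-001, chromosome 7, 45831883 to 45867129) and Grin3a (Grin3a-001, chromosome 4, 49661611 to 49845549) ended at the M21 3′ end. Of 13879 tested genes with a protein-coding M21 model, 274, or 1.97%, ended at least 5000 bases short, as Grin2a and Grin2b did. All values below for these 2 genes are therefore counts over the coding exons and the proximal stretch of the 3′ UTR.

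**Figure D1:**
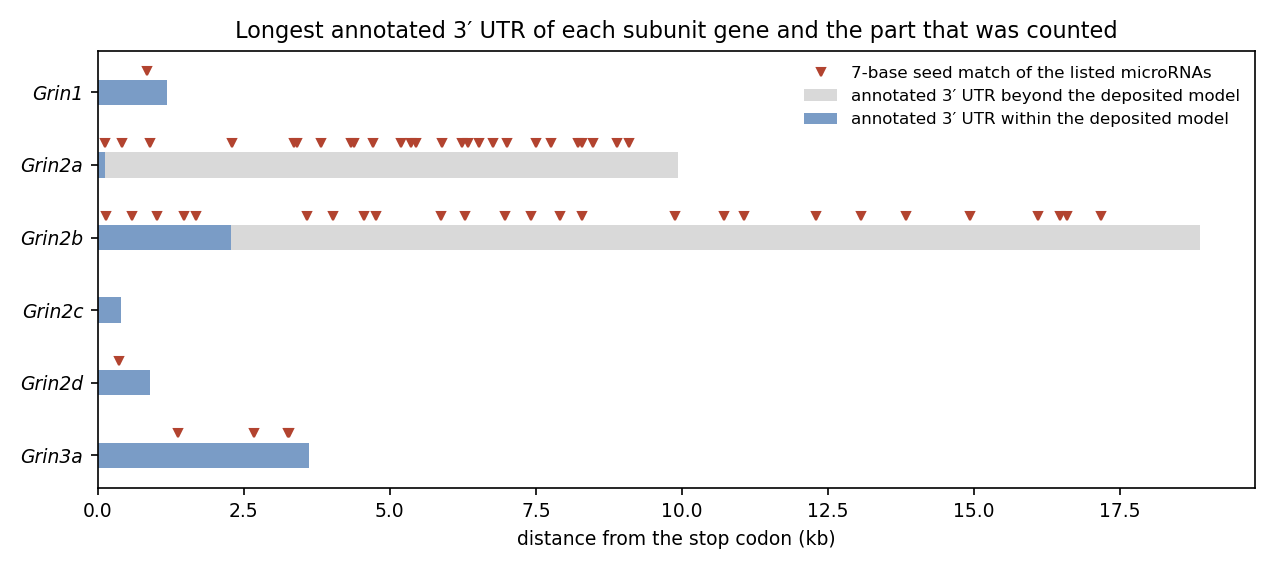
Longest M21 3′ UTR of each subunit gene, as distance from the stop codon in kb. Blue is the stretch inside the deposited model, grey the stretch beyond it, and triangles are the 58 seed matches; all 26 matches of Grin2a lie in the grey stretch.

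With the transcript of highest mean count standing for each gene, libraries held 15409073, 18008742 and 20677833 counts in Dicer1-ifKO, and 11832793, 15826358 and 16125477 counts in WT. A count of 3 was worth 0.145 to 0.254 CPM (counts scaled to library size and composition), far below the level of any subunit, and intervals quoted for differences cover the spread between libraries. Dicer1 mRNA averaged 59.7 ± 2.82 CPM in Dicer1-ifKO and 57.8 ± 3.63 in WT (SD, n = 3 each), but its single deposited model spans the whole gene and does not check the deletion of the floxed exons. Esr1, the estrogen receptor gene from which the receptor domain of creERT2 derives, stood at 11.9 ± 1.76 CPM in Dicer1-ifKO and 4.01 ± 0.762 CPM in WT (SD, n = 3 each), so its direction followed the labels. WT replicate 1, the shallowest library, stood apart along transcript length: over 16774 genes, its deviation from the gene mean had a Spearman's rho of -0.26 with length, against -0.11 to 0.13 in the other 5 libraries.

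None of the 6 subunit mRNAs passed the test between genotypes. In edgeR's quasi-likelihood F-test, adjusted over 17405 genes by the method of Benjamini and Hochberg, 28 genes (0.161%) passed at an adjusted p of 0.05, 22 higher (0.126%) and 6 lower (0.0345%) in Dicer1-ifKO. All 6 subunits passed the filter on low counts, and 0 of the 6 were called. At an unadjusted p of 0.05, 1 of 6 passed, Grin2c, against 10.4% of all genes; limma-voom and DESeq2 also called 0 of 6, although DESeq2 gave no adjusted p for 4 of them. The log2 fold change was positive for 5 of 6, against 49% of all genes, with a median of 0.03 over the subunits and of -0.00 (-0.0032) over all genes. The counts of 1 subunit, Grin2c, did not overlap between genotypes, against 16.1% of all genes.

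**Figure D2:**
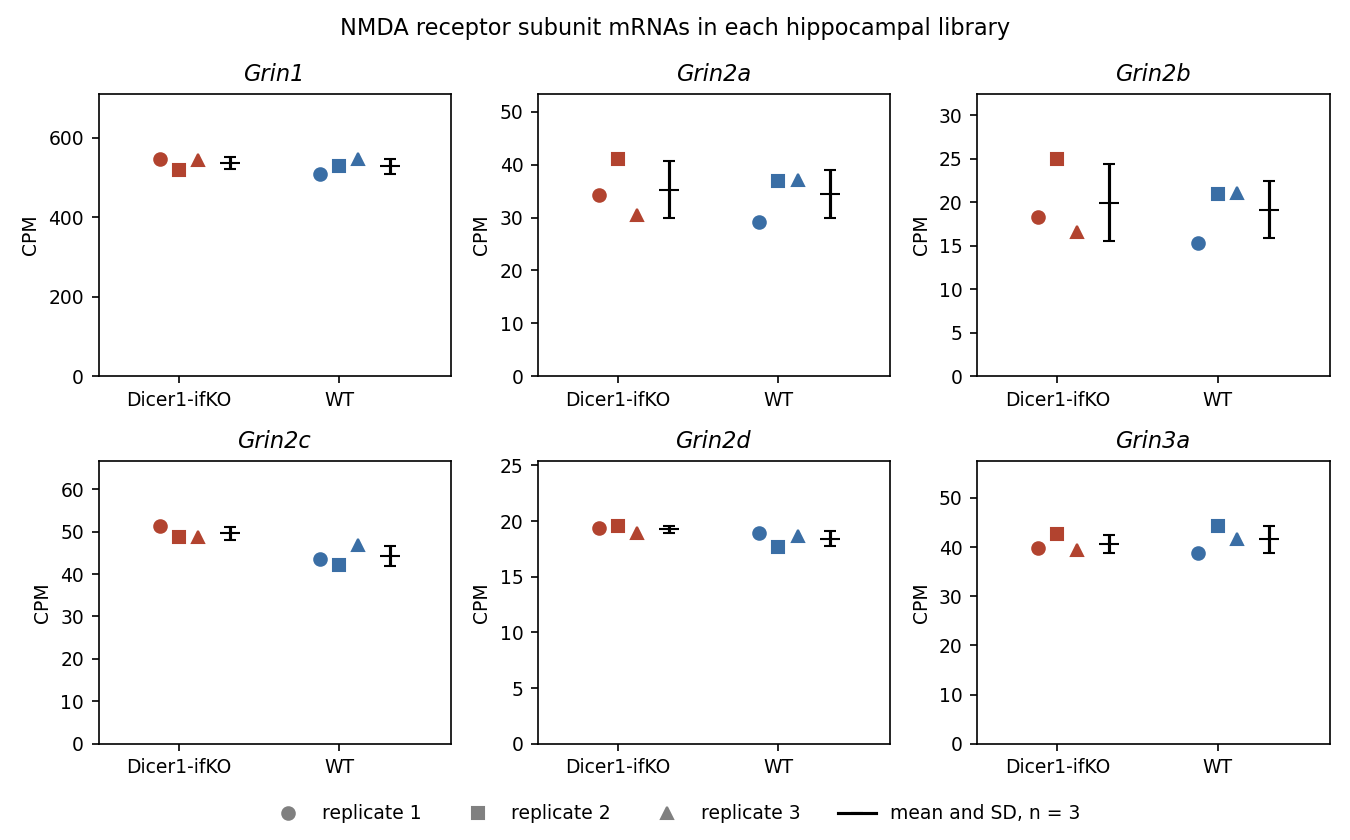
CPM of each subunit mRNA in the 6 hippocampal libraries, with Dicer1-ifKO in red and WT in blue, the symbol giving the replicate, and bars giving mean and SD (n = 3 each). Grin2c, at 48.7 to 51.3 CPM in Dicer1-ifKO and 42.2 to 46.9 in WT, is the panel without overlap.

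Grin1, the subunit gene that every NMDA receptor needs, was the most abundant and among the steadiest. It had 8400, 9346 and 11141 counts in Dicer1-ifKO replicates 1, 2 and 3, and 5978, 8406 and 8898 counts in WT replicates 1, 2 and 3. Scaled to library size, this was 545, 519 and 544 CPM in Dicer1-ifKO and 509, 529 and 547 CPM in WT. The genotypes overlapped throughout, and the lowest library was WT replicate 1. The means were 536 ± 15.0 CPM in Dicer1-ifKO and 528 ± 19.2 CPM in WT (SD, n = 3 each), a log2 fold change of 0.02 (SE 0.04, 95% interval -0.07 to 0.11, edgeR adjusted p 0.913). In folds, the interval runs from 0.951 to 1.08, the narrowest of the 6 subunits. In bulk tissue, fewer cells of a type and less RNA per cell cannot be told apart, here and for every subunit below.

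Grin1 has 9 deposited transcripts, several of which hold only a stretch of the gene. Grin1-003, which covers the 5′ end (25314401 to 25319163), had 717, 789 and 1002 counts in Dicer1-ifKO and 432, 683 and 741 in WT. Its log2 fold change was 0.13 (SE 0.07, edgeR adjusted p 0.590 over 60500 transcripts), and that of Grin1-002, from the same end, was 0.07 (SE 0.06). Stretches from the middle and the 3′ part were nearer to 0, at 0.00 (0.0042, SE 0.06) for Grin1-011, -0.04 (SE 0.06) for Grin1-012 and 0.02 (SE 0.05) for Grin1-014. That contrast depended on WT replicate 1, without which Grin1-003 was at 0.06 and Grin1-002 at 0.00 (0.0022); without single libraries Grin1-003 ranged from 0.06 to 0.20 and Grin1-002 from 0.00 (0.0022) to 0.11. As a percentage of Grin1-014, Grin1-003 was at 33.3, 34.8 and 36.6 in Dicer1-ifKO and at 29.3, 32.8 and 34.2 in WT. The groups overlapped, and the difference of 2.76 percentage points had p = 0.2 in a two-sided exact permutation test, where 3 against 3 cannot go below 0.1. A gene on the other strand lies within the 3′ part of Grin1: E130003G02Rik-001 (25291220 to 25298925) was listed with counts of 64.5%, 63.4% and 65.1% of those of Grin1 in Dicer1-ifKO and 66.4%, 64.5% and 64.5% in WT. Reads of the pair cannot be told apart by strand in these counts, and Grin1-002, Grin1-003, Grin1-011 and Grin1-012 lie outside the stretch they share.

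Grin2a, which encodes the GluN2A subunit of mature forebrain synapses, did not differ detectably between genotypes. It had 527, 741 and 626 counts in Dicer1-ifKO and 343, 586 and 604 counts in WT. These correspond to 34.2, 41.1 and 30.6 CPM in Dicer1-ifKO and to 29.2, 36.9 and 37.1 CPM in WT. The highest library was Dicer1-ifKO replicate 2 and the lowest WT replicate 1, and the genotypes lay across each other. The means were 35.3 ± 5.37 CPM in Dicer1-ifKO and 34.4 ± 4.51 CPM in WT (SD, n = 3 each), with a log2 fold change of 0.02 (SE 0.10, 95% interval -0.18 to 0.22, edgeR adjusted p 0.958). A fold between 0.885 and 1.17 thus lay inside the interval, a wider range than for Grin1.

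Grin2b, whose GluN2B subunit dominates early in development and binds CaMKII, varied most between libraries of a genotype. It had 281, 450 and 340 counts in Dicer1-ifKO and 180, 333 and 343 counts in WT, or 18.2, 25.0 and 16.6 CPM in Dicer1-ifKO and 15.3, 20.96 and 21.1 CPM in WT. Dicer1-ifKO replicate 2 was again the highest library and WT replicate 1 the lowest. The means were 19.9 ± 4.44 CPM in Dicer1-ifKO and 19.1 ± 3.29 CPM in WT (SD, n = 3 each), a log2 fold change of 0.04 (SE 0.13, 95% interval -0.22 to 0.31, edgeR adjusted p 0.943). The interval, from 0.856-fold to 1.24-fold, was the widest of the 6 subunits. Its short 5′ transcript Grin2b-002, which lacks the 3′ exons, stood at 43.1%, 42.2% and 51.5% of the count of Grin2b-201 in Dicer1-ifKO and at 53.9%, 41.1% and 42.0% in WT. This proportion also overlapped between genotypes (two-sided exact permutation p = 1).

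Grin2c, whose GluN2C subunit is best known from cerebellar granule cells and has also been reported in astrocytes, was the one subunit whose 3 Dicer1-ifKO libraries all lay above the 3 WT libraries. It had 790, 878 and 998 counts in Dicer1-ifKO and 512, 670 and 762 counts in WT. After scaling, the levels were 51.3, 48.7 and 48.7 CPM in Dicer1-ifKO and 43.6, 42.2 and 46.9 CPM in WT. The nearest libraries, Dicer1-ifKO replicate 3 and WT replicate 3, were 48.7 and 46.9 CPM. The means were 49.6 ± 1.48 CPM in Dicer1-ifKO and 44.2 ± 2.40 CPM in WT (SD, n = 3 each), a log2 fold change of 0.16 (SE 0.06, 95% interval 0.04 to 0.29) or 1.12-fold (1.03 to 1.22). The unadjusted p of edgeR's quasi-likelihood test was 0.0145, and the adjusted p over 17405 genes was 0.332, so the difference did not pass. In either direction 16.1% of genes had groups that did not overlap, and 7.99% did so with Dicer1-ifKO higher and 8.08% with Dicer1-ifKO lower, so that a gap of this kind was common. Both deposited Grin2c transcripts showed it, with log2 fold changes of 0.15 (SE 0.06) for Grin2c-201 and 0.13 (SE 0.06) for Grin2c-001 (edgeR adjusted p 0.471 and 0.535); they share most of their exons and are not independent. Among 60500 transcripts 15.2% had groups without overlap, 7.58% with Dicer1-ifKO higher, and 47 transcripts (0.0777%) but 0 of the 23 subunit transcripts were called.

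The summed astrocyte markers separated the genotypes in the same direction as Grin2c, as did those of excitatory neurons and of cerebellar granule cells. The excitatory sums barely separated, at no less than 5264.9 CPM in Dicer1-ifKO and no more than 5262.9 CPM in WT. Of these 6 markers 3 were positive, with a median log2 fold change of -0.01. Dentate granule cell markers separated in the other direction. The summed level of 7 astrocyte markers was 3036 to 3215 CPM in Dicer1-ifKO and 2808 to 3032 CPM in WT, without overlap. Slc1a2, by itself 2131 CPM in Dicer1-ifKO and 1939 CPM in WT (means, n = 3 each), made up most of this sum and of its gap, and the median log2 fold change of the list was only 0.01. Of the 7, 0 were called and 4 had a positive log2 fold change: the glutamate transporter gene Slc1a2 was at 0.14 (SE 0.05, edgeR adjusted p 0.332) and the growth factor receptor gene Fgfr3 at 0.13 (SE 0.05, edgeR adjusted p 0.397), but the water channel gene Aqp4 was at -0.16 (SE 0.05, edgeR adjusted p 0.254). The summed level of 5 cerebellar granule cell markers was 5.96 to 6.49 CPM in Dicer1-ifKO and 5.48 to 5.79 CPM in WT, and 3 of them, Gabra6, Fat2 and Barhl1, had at most 3 counts in at least 1 library. The part of astrocyte or cerebellar RNA in the Grin2c values was not tested.

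Grin2d, which encodes the GluN2D subunit found in interneurons and in early development, had 298, 352 and 387 counts in Dicer1-ifKO and 222, 281 and 304 counts in WT. The corresponding levels were 19.3, 19.5 and 18.9 CPM in Dicer1-ifKO and 18.9, 17.7 and 18.7 CPM in WT. All 6 libraries fell within a narrow band, and Dicer1-ifKO replicate 3 and WT replicate 1 had the same value at this precision. The means were 19.3 ± 0.330 CPM in Dicer1-ifKO and 18.4 ± 0.648 CPM in WT (SD, n = 3 each), with a log2 fold change of 0.07 (SE 0.08, 95% interval -0.10 to 0.23, edgeR adjusted p 0.829). The predicted gene Gm45441 on the other strand covers 643 bases, or 11.8%, of its exons in M21, so reads there could belong to either. The 8 inhibitory neuron markers summed to 674 to 715 CPM in Dicer1-ifKO and 655 to 719 CPM in WT.

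Grin3a, whose GluN3A subunit lowers calcium entry through the channel and is abundant before synapses mature, was the only subunit with a negative log2 fold change. It had 614, 768 and 806 counts in Dicer1-ifKO and 456, 703 and 678 counts in WT. The levels were 39.9, 42.6 and 39.4 CPM in Dicer1-ifKO and 38.8, 44.2 and 41.7 CPM in WT. The WT libraries spanned the range of the Dicer1-ifKO libraries. The means were 40.6 ± 1.76 CPM in Dicer1-ifKO and 41.6 ± 2.72 CPM in WT (SD, n = 3 each), a log2 fold change of -0.04 (SE 0.07, 95% interval -0.18 to 0.10, edgeR adjusted p 0.881). Its relative Grin3b, also a subunit gene but not among the 6, was near the low end of the counts. It had 29, 34 and 58 counts in Dicer1-ifKO and 19, 18 and 25 in WT. The log2 fold change of Grin3b was 0.65 (SE 0.25, 95% interval 0.13 to 1.18, edgeR unadjusted p 0.0174, adjusted p 0.347). As with Grin2c, its groups did not overlap and Dicer1-ifKO was higher, which held for 7.99% of all genes.

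**Figure D3:**
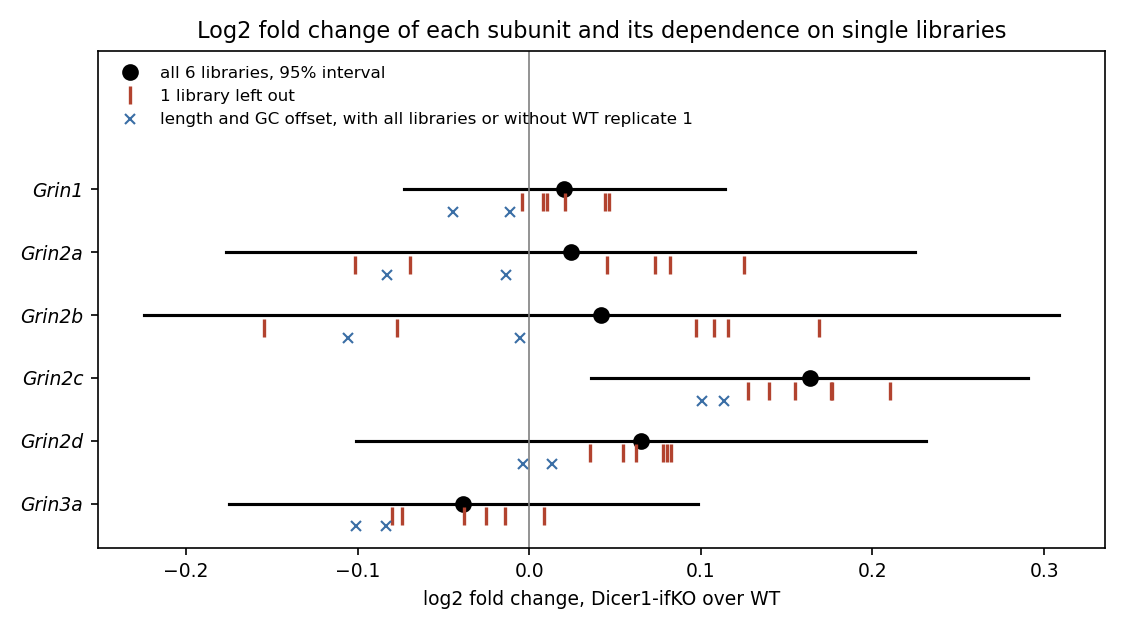
Log2 fold change of each subunit, Dicer1-ifKO over WT, with its 95% interval (black), the 6 fits without 1 library each (red ticks) and the fits corrected along transcript length and GC content (blue crosses). The interval of Grin2c, 0.04 to 0.29, lies above 0, and the other 5 include 0.

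Single libraries set the sign of most of these small values. Leaving out 1 library at a time gave log2 fold changes of -0.10 to 0.13 for Grin2a and of -0.15 to 0.17 for Grin2b, both of which were negative without WT replicate 1, as they were without Dicer1-ifKO replicate 2. Grin1 was negative without WT replicate 1 (-0.0044), and Grin3a was positive without WT replicate 2 (0.0088). Those of Grin2c stayed positive in each such fit, at 0.13 to 0.21, and those of Grin2d were 0.04 to 0.08. In no such fit was a subunit called by edgeR. Genes of a length like that of a subunit (0.8 to 1.25 times) had median log2 fold changes of 0.01 to 0.04. Genes also alike in GC content (within 2 percentage points) had medians of 0.07 beside Grin2c (81 genes) and 0.12 beside Grin2d (only 4 genes). Beside the other subunits these medians were 0.01 to 0.05. Once each library was corrected along length and GC content, Grin2c stood at 0.11, or at 0.10 with WT replicate 1 left out as well. The other 5 then stood between -0.08 and -0.00 (-0.0037) with all libraries.

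Per length, the order of the mean levels was the same in both genotypes. The length was that of the deposited model, and for Grin2a that of all exons of the symbol within its span (7482 bases). Grin1 was at 126 ± 3.53 CPM per kb in Dicer1-ifKO and 125 ± 4.52 in WT, and every library lay far above the other subunits. Grin2c followed at 10.1 ± 0.302 CPM per kb in Dicer1-ifKO and 9.03 ± 0.491 in WT (SD, n = 3 each). Next came Grin3a, at 5.25 to 5.69 CPM per kb in Dicer1-ifKO and 5.18 to 5.91 in WT, and Grin2a, at 4.09 to 5.50 in Dicer1-ifKO and 3.90 to 4.96 in WT; the ranges of this pair overlapped. Grin2d, at 3.48 to 3.60 CPM per kb in Dicer1-ifKO and 3.26 to 3.48 in WT, and Grin2b, at 2.22 to 3.34 in Dicer1-ifKO and 2.05 to 2.82 in WT, came last. Grin2b lay below Grin2d in each library, with Dicer1-ifKO replicate 2 the closest. Levels of Grin2a and Grin2b do not include reads of the distal 3′ UTR, which their deposited models do not cover. The length used for Grin2a can exceed that of Grin2a-001 itself. Its level per kb may therefore be too low, and its place below Grin3a is not settled.

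**Figure D4:**
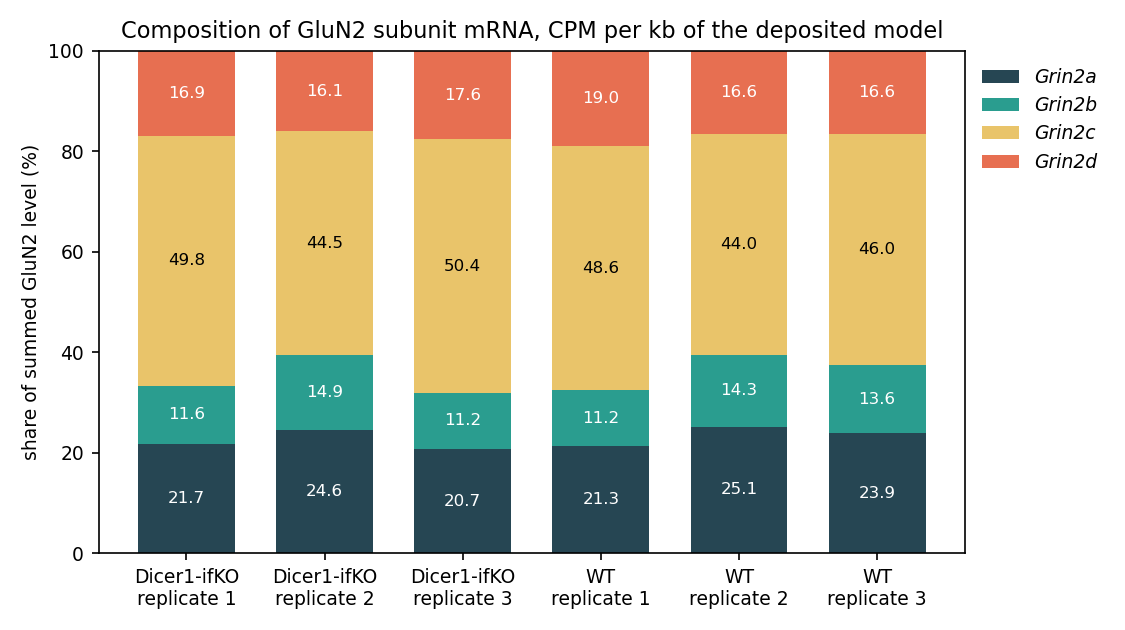
Share of each GluN2 subunit in the summed GluN2 level per length (CPM per kb of the deposited model, in percent) in the 6 libraries, Dicer1-ifKO on the left. Grin2c makes up 44.0% to 50.4% and Grin2b 11.2% to 14.9% of the sum. For Grin2a the length is that of all exons of the symbol within its span. Reads of the distal 3′ UTR of Grin2a and Grin2b are not included.

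The composition of the GluN2 mRNA did not differ detectably either. Grin2c made up 49.8%, 44.5% and 50.4% of the summed GluN2 level per length in Dicer1-ifKO and 48.6%, 44.0% and 46.03% in WT. Grin2a made up 22.3 ± 2.00% in Dicer1-ifKO and 23.4 ± 1.97% in WT, Grin2d 16.9 ± 0.781% in Dicer1-ifKO and 17.4 ± 1.38% in WT, and Grin2b 12.6 ± 2.03% in Dicer1-ifKO and 13.0 ± 1.63% in WT (SD, n = 3 each). In two-sided exact permutation tests over libraries, p was 0.4 for Grin2c, 0.6 for Grin2a, 0.7 for Grin2d and 1 for Grin2b, and 0.933 to 1 after Benjamini-Hochberg adjustment over these 4 shares; 3 against 3 cannot go below 0.1. The ratio of Grin2a to Grin2b, which rises during postnatal development of the forebrain, was 1.88, 1.65 and 1.84 in Dicer1-ifKO and 1.91, 1.76 and 1.76 in WT. On the log2 scale the difference was -0.02 (two-sided exact permutation p = 0.8). The ratio of Grin1 to the summed GluN2 level was 6.03 ± 0.523 in Dicer1-ifKO and 6.38 ± 0.171 in WT (SD, n = 3 each, two-sided exact permutation p = 0.4). The summed level of all 6 subunits was 155, 150 and 153 CPM per kb in Dicer1-ifKO and 144, 150 and 155 in WT, also without a detectable difference (two-sided exact permutation p = 0.6). Dividing by coding length in place of the whole model left Grin2c first, at 43.6% in Dicer1-ifKO and 41.6% in WT. Grin2a then stood at 26.1% in Dicer1-ifKO and 27.3% in WT. Counts of Grin2a and Grin2b leave out the distal 3′ UTR, so these shares describe the counted stretches and not the whole mRNAs.

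Grin2a and Grin2b stood out by their spread between libraries of the same genotype. The within-genotype SD of log2 CPM was 0.206 for Grin2a and 0.285 for Grin2b, against a median of 0.0806 and 0.101 among 3034 and 2896 genes of like level (within 0.5 on the log2 scale). A larger SD was found in 1.02% of the genes of like level for Grin2a and in 0.345% for Grin2b. This share was 60.1% for Grin1, 64.0% for Grin2c and 45.1% for Grin3a, near the middle of genes of their level. It was 96.9% for Grin2d, whose SD of 0.0400 lay far below the median of 0.101 of 2849 genes. The deviations from the mean over all libraries were 0.25 in Dicer1-ifKO replicate 2 and -0.24 in WT replicate 1 for Grin2a, and 0.37 and -0.33 in the same libraries for Grin2b. Genes of like length and GC content deviated far less, with medians in these 2 libraries of 0.03 and -0.05 beside Grin2a (431 genes) and of 0.02 and -0.08 beside Grin2b (394 genes). Genes whose deposited model ended at least 5000 bases short had a median SD of 0.126, against 0.0954 in the 11646 genes that ended within 100 bases. The cause of the spread of Grin2a and Grin2b was not tested.

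**Figure D5:**
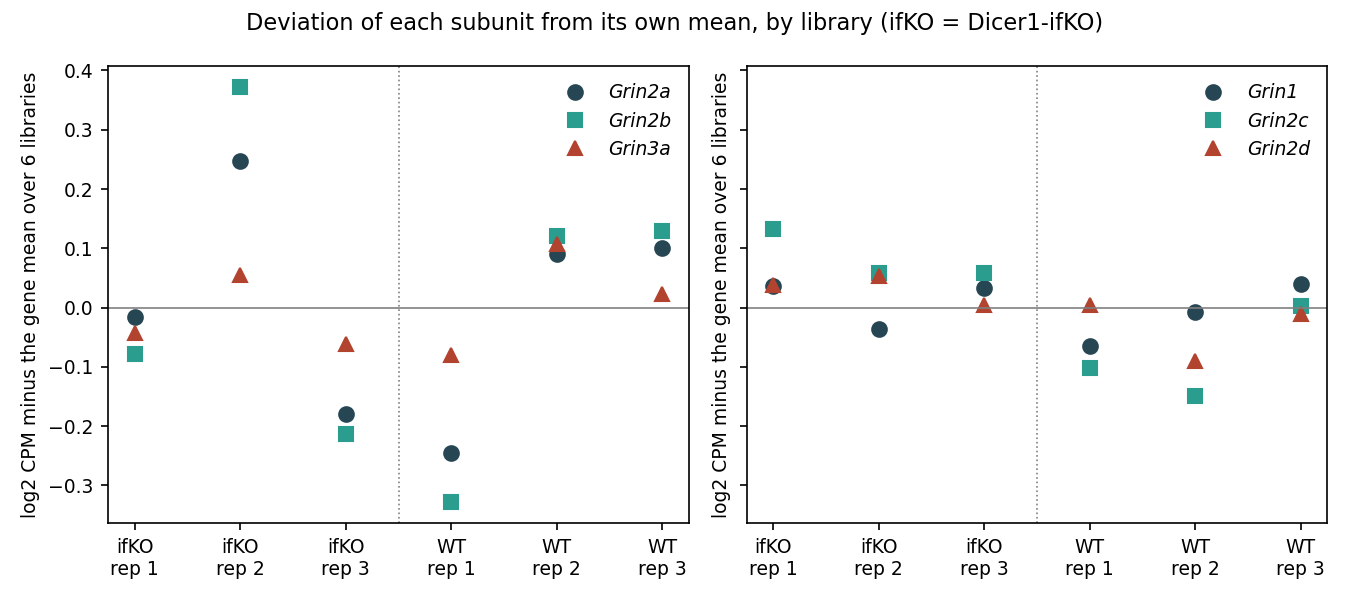
Deviation of each subunit from its mean over the 6 libraries on the log2 CPM scale, Dicer1-ifKO libraries left of the dotted line and WT libraries right of it. Grin2a and Grin2b move together across libraries of both genotypes, between -0.33 and 0.37, while Grin1 and Grin2d stay within 0.10 of their means.

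The subunits did not vary as a single group. Over the 6 libraries, as a description, Pearson's r of log2 CPM was 0.992 between Grin2a and Grin2b, 0.833 between Grin2a and Grin3a and 0.801 between Grin2c and Grin2d. Grin1 was unlike the GluN2 pair, at 0.0921 with Grin2a and 0.0387 with Grin2b. All of these points share library depth and composition. Among 10583 genes of at least 3 on the log2 CPM scale, the pattern most like Grin2a was that of Ktn1 and Antxr1 (r of 0.989 and 0.988 over 6 libraries), that most like Grin2b was of Naa15 and Antxr1 (0.989 and 0.986), that most like Grin2c of D16H22S680E and Mau2 (0.990 and 0.978), that most like Grin2d of Rasgrp2 and Bcat1 (0.991 and 0.985), that most like Grin3a of Vps37d and Zdhhc17 (0.994 and 0.988) and that most like Grin1 of Pbx4 and Cyhr1 (0.999 and 0.996). With so few libraries such values were not confined to the genes named: 55 to 126 genes, or 0.520% to 1.19% of those compared, had r above 0.9 with a given subunit.

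The partners of the receptor were read in the same way, from lists chosen with earlier results of these data known, and 0 genes of any partner list were called. Of 11 subunit genes of the AMPA, kainate and delta receptors, which are the other glutamate-gated channels, 9 were positive in log2 fold change and their median was 0.07. The kainate receptor gene Grik3 was at 65.1 ± 2.38 CPM in Dicer1-ifKO and 57.6 ± 2.13 CPM in WT (SD, n = 3 each; log2 fold change 0.18, SE 0.06, edgeR adjusted p 0.229), and Gria4 and Grik2 were at 0.14 and 0.11. Of 16 scaffold and bound signalling genes, 11 were positive with a median of 0.05, and 6 had an unadjusted p below 0.05, where 49% of all genes were positive and 10.4% had such a p. Dlg2, which encodes the scaffold PSD-93, was at 288 ± 11.2 CPM in Dicer1-ifKO and 254 ± 21.4 CPM in WT (SD, n = 3 each; log2 fold change 0.18, SE 0.05, edgeR adjusted p 0.199). Rasgrf1, an exchange factor that binds GluN2B, was at 864 ± 19.8 CPM in Dicer1-ifKO and 992 ± 137 CPM in WT (SD, n = 3 each; log2 fold change -0.20, SE 0.07, edgeR adjusted p 0.278), a comparison in which WT replicate 2, at 849 CPM, lay just below the 852 to 887 CPM of the Dicer1-ifKO libraries and the other WT libraries above them. Without WT replicate 2, edgeR called Dlg2 (0.25, adjusted p 0.0202) and Rasgrf1 (-0.30, adjusted p 0.00724). That fit called 105 genes in all, against 28 with all libraries.

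Among 8 genes for transport of NMDA receptors along dendrites, 5 were positive. Apba1, an adaptor of the kinesin complex that carries GluN2B, was at 202, 196 and 196 CPM in Dicer1-ifKO and 171, 179 and 169 CPM in WT, without overlap. Its log2 fold change was 0.19 (SE 0.05, edgeR adjusted p 0.110). Without WT replicate 2, in the same fit of 105 called genes, it was called at 0.22 (edgeR adjusted p 0.0396). Lin7c, from the same complex, was at -0.14 (SE 0.05, edgeR adjusted p 0.332) and Lin7a at 0.15. Of 17 kinase and phosphatase genes that act on the subunits, 9 were positive with a median of 0.01, which was -0.02 to 0.04 without single libraries. Those with the smallest p had negative values and did not pass the test: Cdk5, a kinase of GluN2A and GluN2B, had a log2 fold change of -0.18 (SE 0.05, edgeR adjusted p 0.182), and Ppp3cb, a catalytic subunit of calcineurin, had -0.14 (SE 0.04, edgeR adjusted p 0.198). Of 15 genes for the supply and removal of the co-agonists glycine and D-serine, 8 were positive with a median of 0.01, and this median was -0.05 to -0.01 when 1 library was left out. Shmt2, the mitochondrial enzyme that interconverts serine and glycine, was at 14.2 ± 0.479 CPM in Dicer1-ifKO and 17.6 ± 1.73 CPM in WT (SD, n = 3 each; log2 fold change -0.30, SE 0.09, edgeR adjusted p 0.218). The glycine transporter gene Slc6a5, with only 11 to 36 counts per library, was at 0.50 (SE 0.26, edgeR adjusted p 0.527). Amt, from the glycine cleavage system, was at -0.13.

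Of 11 genes that regulate transcription or translation of subunit mRNAs, 8 were positive with a median of 0.04, but without single libraries 4 to 9 were positive and the median was -0.02 to 0.06. Cpeb3, an RNA-binding repressor of translation, was at 60.5 ± 2.12 CPM in Dicer1-ifKO and 52.4 ± 4.08 CPM in WT (SD, n = 3 each; log2 fold change 0.20, SE 0.06, edgeR adjusted p 0.218). Rest, a repressor of neuronal genes including Grin2b, was at -0.24 (SE 0.15, edgeR adjusted p 0.631) and Cpeb4 at 0.08. Of 14 genes that activity induces through NMDA receptors, 13 were tested and 4 were positive, with a median of -0.05, but without single libraries 3 to 8 were positive and the median was -0.06 to 0.03; Atf3 did not pass the filter. Egr2, with only 11 to 21 counts per library, was at -0.54 (SE 0.29, edgeR adjusted p 0.557). Fosb was at 0.19 and Nr4a1 at -0.11. All 3 are transcription factors of the early response, and 0 of the 13 had an unadjusted p below 0.05.

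Markers of hippocampal cells were present in every library, and their levels were not compared with another tissue. Excitatory neuron markers summed to 5265 to 5622 CPM in Dicer1-ifKO and 5114 to 5263 CPM in WT, and 0 of 6 were called. Camk2a, at 3583 CPM in Dicer1-ifKO and 3330 CPM in WT (means, n = 3 each), made up most of this sum. Its log2 fold change was 0.11, while Nrgn was at -0.09 and Neurod1 at -0.06. Markers of CA1 and CA3 pyramidal cells summed to 685 to 732 CPM in Dicer1-ifKO and 724 to 740 CPM in WT. Those of dentate granule cells summed to 287 to 313.2 CPM in Dicer1-ifKO and 313.5 to 329 CPM in WT; 1 of 6 was called, Calb1, which encodes calbindin and fell by 0.27 on the log2 scale (edgeR adjusted p 0.0324). It was not called without Dicer1-ifKO replicate 1 (edgeR adjusted p 0.363), Dicer1-ifKO replicate 3 (0.0754), WT replicate 1 (0.105) or WT replicate 3 (0.0930), with log2 fold changes of -0.31 to -0.22 over the fits without 1 library. Plk5, of the same list, went the other way without passing, at 29.2 CPM in Dicer1-ifKO and 23.8 CPM in WT (means, n = 3 each; log2 fold change 0.31, SE 0.08, edgeR adjusted p 0.176), and 2 of the 6 were positive. The summed levels of oligodendrocyte, microglia, endothelial, thalamus, striatum and choroid plexus markers overlapped between genotypes, and 0 of these markers were called. Single markers among them differed in both directions without passing: Itgam of microglia was at 0.17 and Tmem119 at -0.24, each without overlap. Of 7 thalamus markers 5 were positive with a median of 0.16, among them Lef1 at 0.33 (edgeR adjusted p 0.371) and Tnnt1 at 0.38 (edgeR adjusted p 0.403), both without overlap, while Calb2 was at -0.26. The part of these cells in the subunit values was not tested.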

How the data were processed

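Hippocampal poly(A) RNA was sequenced with a stranded kit, per the labels' protocols. The submitters' processing notes name TopHat2 2.0.6 with Bowtie2 2.0.5, then DESeq2, SAMtools 0.1.18 and CASAVA 1.8.2, and as builds mm10 and GRCm38. Which read counter, annotation release and strand setting were used is not given in the sources. Per the file headers, the authors deposited a raw count and a normalised value per transcript. The normalised signal equals the deposited count divided by 1 factor per library (0.72 to 1.28) and was not tested. Reads in shared exons were counted for each transcript, so the transcript with the highest mean count stands for each gene symbol, and 22441 symbols had a count.

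Tests used edgeR 4.0.16 in R 4.3.3 (TMM, filterByExpr with a minimum count of 10, quasi-likelihood F-test on genotype alone), with Benjamini-Hochberg adjustment over the 17405 tested genes; the common biological coefficient of variation was 0.0464. Log2 fold changes use a prior count of 0.125 and log2 CPM a prior count of 2, and SE is the size of the log2 fold change over the root of F. limma 3.58.1, DESeq2 1.42.0, other scalings and filters, summed transcripts, all transcripts as features, a replicate block, a length and GC offset and the omission of each library were alternatives. Exact permutation tests over libraries used scipy 1.17.1. The fits were tested on simulated data. Lengths and 3′ UTRs come from GENCODE M21, in which 84.2% of transcripts had identical coordinates; for Grin2a-001 the length is that of the exons of the symbol within its span.

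The subunits, gene lists and microRNAs were chosen with earlier results of these data known. Genes named beside the 6 subunits are the up to 3 of each list with the smallest p, and the 2 most alike in pattern to each subunit; some genes and matches under this rule are not reported here, of the marker lists only some are named, and Dicer1, Esr1 and Grin3b were added as checks or as a relative. Libraries of a genotype are biological replicates per the labels, from 9 mice per genotype, while the design text names 12. Same-numbered libraries did not deviate together (r of -0.09 to 0.03), so they were not treated as pairs.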

Additional observations from a re-analysis of the deposited data

How the results depend on the processing

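In the 15 alternative settings 0 of 6 subunits were called (lowest adjusted p 0.307, for Grin2c). The log2 fold change of Grin2c stayed positive, at 0.10 to 0.21. The length and GC offset turned Grin1 to -0.011, Grin2a to -0.013, Grin2b to -0.0056 and Grin2d to -0.0037, and the offset without WT replicate 1 gave -0.044 for Grin1, -0.083 for Grin2a, -0.106 for Grin2b and a median of -0.064 over the subunits. Leaving out single libraries gave -0.0044 to 0.047 for Grin1, -0.10 to 0.13 for Grin2a, -0.15 to 0.17 for Grin2b, -0.080 to 0.0088 for Grin3a and -0.037 to 0.103 for the median. It gave -0.054 to 0.040 for the log2 ratio of Grin2a to Grin2b, -1.59 to 0.242 points for the Grin2b share and -0.924 to 0.291 points for the Grin2d share, against -0.427 and -0.508 points with all libraries. For transcripts it gave -0.016 to 0.060 for Grin1-014, -0.033 to 0.037 for Grin1-011 and -0.076 to 0.131 for Grin2b-002. The causes were not tested. Over all genes, 28 calls became 151 without the filter on low counts, 7 with transcripts summed, 68 in DESeq2 and 6 to 105 when 1 library was left out, and 47 transcripts were called. The replicate block gave 22 calls and 0 subunits. Replicate numbers are only shared labels, and no library correlated best with its own number. The lowest count of a subunit in any library was 180, for Grin2b.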
